A study of Mus musculus with 18 samples.

Results

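The HoxC cluster is a run of homeobox genes on mouse chromosome 15, and its members were followed here through sorted skin and mouth cells from several body sites. The members were the 9 listed Hoxc genes. Each was represented by a probe set annotated to that gene symbol alone, and where a gene had several such probe sets by the one with the highest mean over the 18 arrays. Of the 9 genes, 7 were measured (Hoxc4, Hoxc5, Hoxc6, Hoxc8, Hoxc9, Hoxc10 and Hoxc13), out of 18193 genes measured in all. Hoxc11 and Hoxc12 had no such probe set and are not analysed here.

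RNA levels were read on the Affymetrix Mouse Genome 430 2.0 array, with 6 groups of 3 arrays each. The Oral group held cells from oral mucosa and the Cranial group cells from cranial dermis, both from Wnt1Cre; R26mTmG mice. The Ventral and Dorsal groups, each named for the dermis it was taken from, came from En1Cre; R26mTmG mice. These 4 groups were sorted as GFP-positive, RFP-negative cells at postnatal day 30. EPF and ENF carried the same En1Cre; R26mTmG alleles, were dissected from dorsal dermis and are labelled postnatal day 56. EPF was the GFP-positive, RFP-negative fraction and ENF the RFP-positive, GFP-negative fraction. The protocol text gives 30 days for the EPF and ENF harvest, so their age is not settled. All 6 groups were untreated and were gated negative for CD31, CD45, Tie2, Tie119, EpCAM and DAPI.

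The R26mTmG reporter is red in every cell until Cre acts and green thereafter in that cell and its descendants. Green cells are thus marked by past activity of the Cre driver, En1 or Wnt1, and not by a fibroblast gene. Body site and Cre driver changed together between head and trunk groups and cannot be told apart. The labels do not say whether replicates came from separate animals, so the p-values measure the spread between these samples, which may be technical.

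Hox genes encode homeodomain transcription factors that give cells positional identity along the head-to-tail axis. Within a cluster, genes toward the Hoxc4 end are switched on earlier and reach farther forward in the embryo than genes toward the Hoxc13 end, a property called colinearity. Adult fibroblasts keep Hox patterns related to their place of origin, and neural crest of the face and jaw, the lineage traced with Wnt1Cre, is known for little Hox expression. The reference order of gene starts, from the Hoxc4 end, was Hoxc4, Mir615, Hoxc5, Hoxc6, Hoxc8, Hoxc9, Mir196a-2, Hoxc10, Hoxc11, Hotair, Hoxc12 and Hoxc13.

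The start of Hoxc4 is shown because it is the only one of the 9 genes in the promoter table used here, and because the level of Hoxc4 was graded over the sites. The stretch covers chr15:103034145-103034444 on the plus strand of GRCm38.p6 (RefSeq), 300 bases in all. Capitals mark the 2 motif matches, a GC box (GGGCGG) and a CCAAT box, which is read on the opposite strand as ATTGG.
Hoxc4 promoter: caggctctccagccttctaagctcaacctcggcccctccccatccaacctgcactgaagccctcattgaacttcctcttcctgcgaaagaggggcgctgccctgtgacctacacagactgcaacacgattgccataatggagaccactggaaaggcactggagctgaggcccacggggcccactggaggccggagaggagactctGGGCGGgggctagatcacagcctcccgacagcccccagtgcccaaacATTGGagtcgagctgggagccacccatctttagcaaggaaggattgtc
The stretch held 9 CG dinucleotides and was 60.3% G or C, against medians of 7 and 52.7% over the 32851 promoters of the table. On both strands, GGGCGG was found in 35.7% of all promoters and CCAAT in 37.4%. TATAAA (13.6% of promoters), the homeodomain core TAATTA (5.3%) and the Pbx-Hox core TGATNNAT (8.8%) had no match in it. The motifs matched did not overlap, and a match is a description of the letters only.

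Both microRNAs named above are encoded inside the cluster, and their mature sequences are shown because they share this locus with the members. The seed, bases 2 to 8, is in capitals, and the 2 seeds differ. Neither microRNA gene had a probe set of its own, nor did Hotair, so their levels are not analysed here.
mmu-miR-196a-5p: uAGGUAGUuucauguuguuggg
mmu-miR-615-3p: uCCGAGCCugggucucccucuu
The first lies at chr15:102973365-102973386 and the second at chr15:103014969-103014990, both on the plus strand of GRCm38.p6 (RefSeq). In the order of gene starts the first comes between Hoxc9 and Hoxc10 and the second next to Hoxc5. That order does not show whether a microRNA lies inside a neighbouring gene.

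The values are log2 levels after robust multichip averaging (RMA), so 1 unit is a doubling of signal. They compare groups within a gene but not one gene with another. The lower quartile of the arrays, 3.93 to 4.10, gives the scale of dim signal, and the file holds no detection calls. Replicates of a group were close, with a median SD per gene of 0.13 in Oral, 0.10 in Cranial, 0.14 in Ventral, 0.28 in Dorsal, 0.18 in EPF and 0.25 in ENF. Array Dorsal 1 stood apart on the third principal component (6.33% of the variance), at 71.46 against -31.24 to 11.12 for the other 17, so HoxC differences from Dorsal are also given without it. The first component (58.3%) separated EPF and ENF from the 4 sites, and no test was made across that divide. All 10 fibroblast markers lay above the array median in every group, while genes of the gated surface proteins were mixed. Pecam1 (CD31) and Ptprc (CD45) averaged 3.77 to 4.21 in all groups, but Epcam averaged 8.43 to 9.11. Tek (Tie2) averaged 10.20 in EPF and 10.46 in ENF, against 3.75 to 4.27 in the sites. Other endothelial and leukocyte markers varied. Kdr at 6.55 to 8.87, Csf1r at 6.48 to 9.88 and Laptm5 at 8.63 to 12.30 were well above the dim range. Cdh5 at 4.01 to 4.23, Emcn at 3.47 to 3.80 and Tyrobp at 4.31 to 4.86 were not. Of 8 endothelial markers, 2 to 5 lay above the array median by group, and of 8 leukocyte markers 5 in every group. Of 12 keratinocyte markers, 3 or 4 lay above it in each of the 4 sites.

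**Figure D1:**
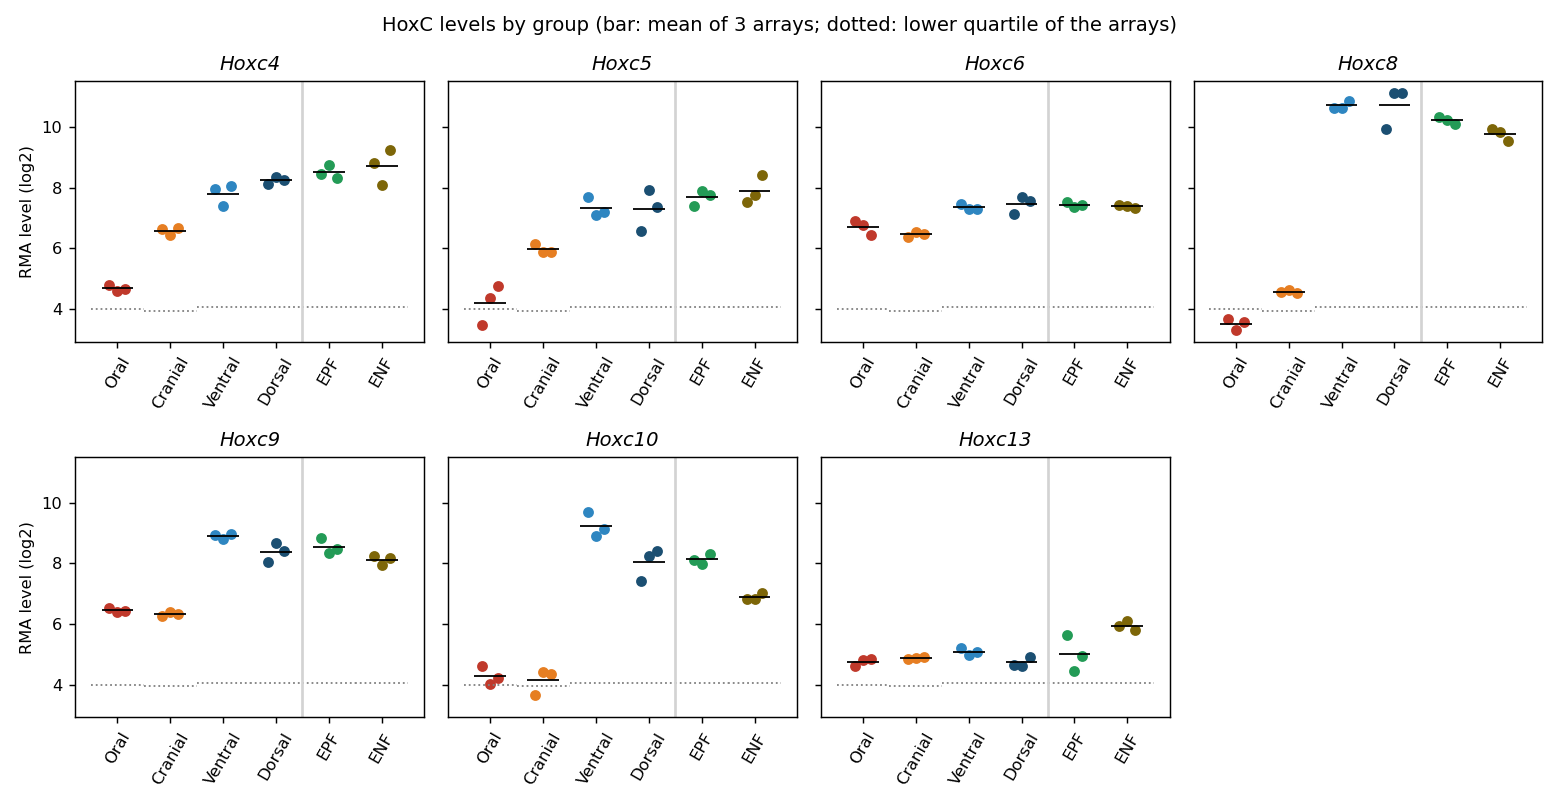
RMA level (log2) of the 7 measured HoxC genes in each of the 18 arrays, by group; the bar is the mean of 3 arrays and the dotted line the mean lower quartile of the group's arrays. Hoxc8 and Hoxc10 sit near the dotted line in Oral and Cranial and far above it in Ventral, Dorsal, EPF and ENF, while Hoxc4 steps up from Oral to Cranial to the trunk groups.

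Cells from both head sites carried less signal than cells from both trunk sites for every measured HoxC gene except Hoxc13. Hoxc8 and Hoxc10 fell most, and in Oral and Cranial they were close to the dim end of the arrays. Hoxc4 and Hoxc5 fell in both head groups but stood higher in Cranial than in Oral, for Hoxc5 only on the probe set used. In limma's moderated F test over the 4 sites, 6 of 7 members were called at an adjusted p under 0.05 (Benjamini-Hochberg over all genes), against 21.1% of all genes; Hoxc13 was not (adjusted p = 0.135).

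Hoxc8 (probe set 1452412_at), which patterns the thoracic skeleton and brachial motor neurons, had the widest range over the sites. Its levels were 3.68, 3.31 and 3.56 in Oral and 4.56, 4.62 and 4.53 in Cranial. They were 10.64, 10.64 and 10.86 in Ventral and 9.95, 11.13 and 11.12 in Dorsal. No head array came near a trunk array, and the 2 head groups did not overlap each other either. The Oral mean of 3.52 lay at or below the lower quartile of those arrays, so fold differences from Oral rest on dim signal.

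Hoxc8 was 149-fold lower in Oral than in Dorsal (log2 difference -7.22 ± 0.26, SE; limma adjusted p = 1.08e-07), the most negative of all 18193 differences in that comparison. It was 147-fold lower in Oral than in Ventral (-7.20, adjusted p = 1.49e-07), again the most negative by rank. The Cranial level was 71.7-fold below Dorsal (-6.16 ± 0.26, adjusted p = 6.91e-07), which ranked 2 of 18193, and 70.7-fold below Ventral (-6.14, adjusted p = 5.08e-07), which ranked 1. Since the Oral signal was dim, the folds and ranks against Oral are as measured on the RMA scale. The Cranial mean of 4.57 also lay at or below the array median, so the Cranial folds carry the same limit. With the Oral level set at the lower quartile of its arrays (3.98), the folds would be 108 against Dorsal and 106 against Ventral. The 4 head-to-trunk comparisons share arrays and are not independent of one another.

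Hoxc10 (1439798_at), a lumbar and hindlimb Hox gene, gave 4.61, 4.02 and 4.22 in Oral and 3.66, 4.42 and 4.36 in Cranial. The trunk levels were 9.69, 8.91 and 9.15 in Ventral and 7.43, 8.25 and 8.42 in Dorsal. Head and trunk arrays were far apart, and the 2 head groups overlapped. The gene was 14.8-fold lower in Cranial than in Dorsal (-3.89 ± 0.30, limma adjusted p = 3.38e-05), the fifth most negative difference of all genes. It was 34.4-fold lower in Cranial than in Ventral (-5.10, adjusted p = 5.22e-06). The Oral differences were -3.75 against Dorsal (adjusted p = 2.64e-05) and -4.97 against Ventral (adjusted p = 3.24e-06). The head means, 4.145 in Cranial and 4.28 in Oral, lay close to the lower quartile of those arrays (3.95 and 3.98). These folds and differences thus rest on dim signal.

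Hoxc9 (1449867_at), known in the mouse for the thoracic identity of motor neurons, had levels of 6.54, 6.39 and 6.43 in Oral and 6.25, 6.40 and 6.32 in Cranial. Its levels were 8.93, 8.80 and 8.96 in Ventral and 8.04, 8.67 and 8.40 in Dorsal. The head arrays were tightly grouped and all lay below the trunk arrays. Cranial was lower than Dorsal by a log2 difference of -2.05 ± 0.14 and than Ventral by -2.57 ± 0.14 (limma adjusted p = 1.78e-05 and 3.68e-06). Oral gave -1.91 and -2.44 against the same groups (adjusted p = 1.43e-05 and 2.42e-06).

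Hoxc4 (1422870_at), which takes part in patterning the neck and upper thorax, had the graded pattern. It gave 4.79, 4.59 and 4.67 in Oral and 6.62, 6.45 and 6.68 in Cranial, against 7.95, 7.41 and 8.05 in Ventral and 8.11, 8.35 and 8.26 in Dorsal. No 2 of these 4 groups overlapped. The Oral mean of 4.69 lay at or below the array median, so differences from Oral rest in part on dim signal. Oral was 11.8-fold below Dorsal (-3.55 ± 0.16, limma adjusted p = 3.94e-07), and Cranial was 3.15-fold below Dorsal (-1.66 ± 0.16, adjusted p = 0.000128). Against Ventral the differences were -3.12 for Oral (adjusted p = 8.63e-07) and -1.22 for Cranial (adjusted p = 0.000689).

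Hoxc5 (1439885_at) acts with its paralogues in patterning the forelimb. Its levels were 3.47, 4.37 and 4.76 in Oral and 6.16, 5.87 and 5.87 in Cranial. They were 7.69, 7.11 and 7.21 in Ventral and 6.58, 7.94 and 7.35 in Dorsal. Oral and Cranial arrays each lay below all trunk arrays, and the replicate spread was wider than for Hoxc4. The Oral mean of 4.20 was close to the lower quartile of those arrays (3.98), so differences from Oral rest on dim signal. The log2 differences were -3.09 (Oral minus Dorsal), -3.14 (Oral minus Ventral), -1.32 (Cranial minus Dorsal) and -1.37 (Cranial minus Ventral), with limma adjusted p of 0.000308, 0.000313, 0.0291 and 0.0254. The call against Dorsal for Cranial was lost without Cranial 1, Cranial 2, Cranial 3, Dorsal 2 or Dorsal 3 (adjusted p 0.0529 to 0.0922). The call against Ventral for Cranial was lost without Cranial 1, Cranial 2, Cranial 3, Ventral 1 or Ventral 3 (0.058 to 0.0888).

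Hoxc6 (1427454_at), whose forward limit of expression lies near the boundary of neck and thorax, differed least among the called genes. It gave 6.89, 6.76 and 6.44 in Oral, 6.37, 6.55 and 6.48 in Cranial, 7.47, 7.29 and 7.29 in Ventral, and 7.14, 7.68 and 7.57 in Dorsal. All head arrays lay below all trunk arrays by a narrow margin. The differences were -0.999 ± 0.16 (Cranial minus Dorsal, limma adjusted p = 0.00202), -0.77 (Oral minus Dorsal, 0.00772), -0.88 (Cranial minus Ventral, 0.00405) and -0.65 (Oral minus Ventral, 0.0191). The last of these was not called without Oral 2, Oral 3 or Ventral 1 (adjusted p 0.0545 to 0.0751).

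Hoxc13 (1425874_at), at the far end of the cluster, is needed for hair and nail formation. Its probe set stayed at or below the array median in all 4 sites: group means were 4.75 in Oral, 4.88 in Cranial, 5.08 in Ventral and 4.74 in Dorsal. None of its site differences was called; Ventral minus Dorsal was 0.34 (limma adjusted p = 0.515) and Oral minus Ventral -0.33 (adjusted p = 0.0879). At such dim signal a difference may not have been detectable, so its place in the order is not settled.

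Counted per comparison, 6 of 7 members were lower in Cranial than in Dorsal, against 7.45% of all genes, and the members' median difference was -1.66 against -0.06 over all genes. In Oral against Dorsal 6 of 7 were lower (6.3% of all genes; medians -3.09 and -0.02). In Cranial against Ventral 6 of 7 were lower (6.2%; -1.37 and -0.06), and in Oral against Ventral 6 of 7 (4.31%; -3.12 and -0.02). No member was called higher in a head group in this fit, though Hoxc13 was called higher in Cranial than in Dorsal with array weights. Without Dorsal 1, the same 6 genes were called lower in Cranial and in Oral against Dorsal, with Hoxc8 at -6.56 and -7.61 and Hoxc10 at -4.19 and -4.05. The same pair of values without that array was -1.72 and -3.62 for Hoxc4, -1.68 and -3.44 for Hoxc5, -1.16 and -0.93 for Hoxc6, and -2.21 and -2.08 for Hoxc9.

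**Figure D2:**
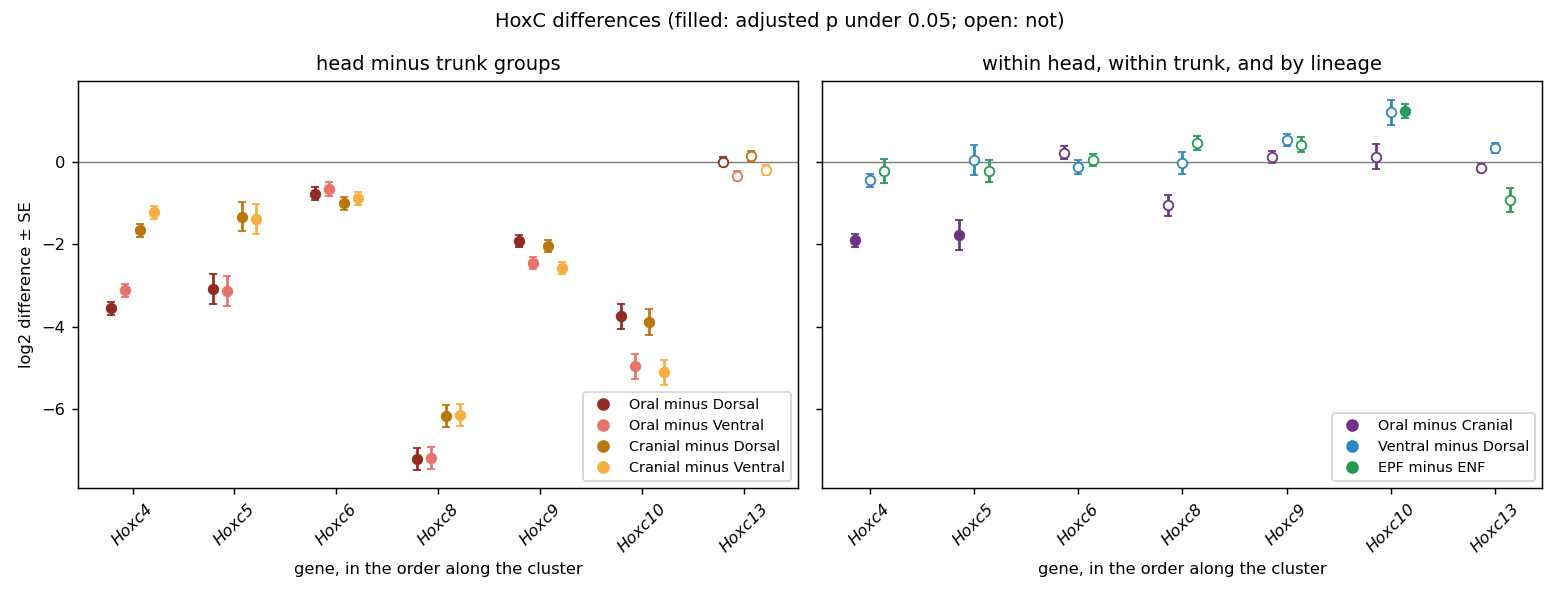
Log2 difference ± SE of each HoxC gene, in its order along the cluster, for the 4 head-minus-trunk comparisons (left) and for Oral minus Cranial, Ventral minus Dorsal and EPF minus ENF (right); filled points were called. The left panel reaches -7.22 at Hoxc8 and narrows at Hoxc6 and Hoxc13, and on the right the filled points are Hoxc4 and Hoxc5 for Oral minus Cranial and Hoxc10 for EPF minus ENF.

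Between the head sites, Hoxc4 and Hoxc5 were called and the others did not pass the test. Hoxc10 was dim in both, with means of 4.28 in Oral and 4.145 in Cranial, so a difference may not have been detectable. Hoxc4 was 3.73-fold lower in Oral than in Cranial (-1.90 ± 0.16, limma adjusted p = 0.000105), and Hoxc5 was 3.40-fold lower (-1.77 ± 0.36, adjusted p = 0.0479). These were 2 of 7 members, against 0.731% of all genes called lower. The Hoxc5 call was lost without any 1 Cranial array, Oral 1, Oral 2, Ventral 2 or Ventral 3 (adjusted p 0.0781 to 0.221), and the Hoxc4 call was kept without any array. Hoxc8 had non-overlapping arrays at -1.05 ± 0.26 but missed the threshold (adjusted p = 0.113). Without Dorsal 1, which shares the fit of the 12 site arrays, the Hoxc8 difference was called (adjusted p = 0.000388). It was also called with limma when only the 6 Oral and Cranial arrays were fitted (adjusted p = 1.18e-05). Hoxc8 means lay at or below the array median in both head groups, at 3.52 in Oral and 4.57 in Cranial. Hoxc4 and Hoxc5 means did so in Oral only, so these differences rest in part on dim signal. The 2 groups share a Cre driver, age and sort in the labels, yet marker genes differed between them too. Lower in Oral than in Cranial were the fibroblast markers Dcn (-1.91) and Twist2 (-1.10), 2 of 10, the adipocyte marker Lpl (-2.11), 1 of 5, and the keratinocyte marker Perp (-1.43), 1 of 12. Their part in the HoxC differences was not tested.

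As a share of the distance from the Oral mean to the Dorsal mean, the Cranial mean stood at 53.4% for Hoxc4, 57.2% for Hoxc5 and 14.6% for Hoxc8. Hoxc9 and Hoxc10 stood at -6.9% and -3.7%, and Hoxc6 at -29.8%, below 0% because Cranial lay slightly lower than Oral. With Ventral as the far end, Hoxc4 was at 60.9% and Hoxc5 at 56.3%. The scale describes the means and was not tested.

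The Hoxc5 value turns on its probe set. The one used, 1439885_at, was the brightest, while 1450832_at and 1456301_at stayed at or below the array median in every group. Oral minus Cranial was -1.77 on the brightest set but 0.02 and -0.04 on the dim ones. Those 2 sets gave -0.29 to -0.54 in the 4 head-to-trunk comparisons, of which 5 of 8 were called when every probe set was tested. The direction of Hoxc5 against trunk was thus shared by all 3 probe sets, and the Oral-to-Cranial step was not.

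For Hoxc6 all 3 probe sets were lower in both head groups than in both trunk groups. The set 1427362_x_at was called in all 4 comparisons (-1.03 to -1.81), and 1427361_at was called against Ventral (-1.40 in Cranial, -1.47 in Oral) but not against Dorsal (-0.48 and -0.55). In Ventral minus Dorsal the 2 other sets gave 0.92 and 0.63, and the set used gave -0.12; none was called.

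**Figure D3:**
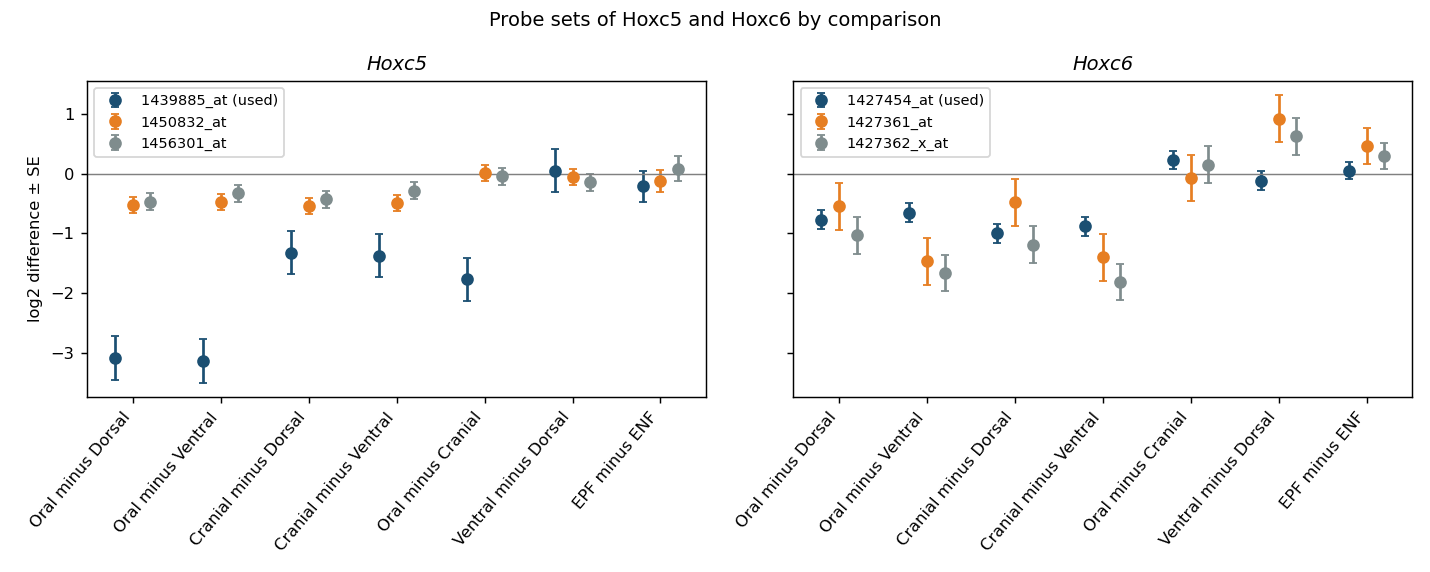
Log2 difference ± SE in each comparison for the 3 probe sets of Hoxc5 (left) and Hoxc6 (right); dark blue is the set used. For Hoxc5 the dim sets lie near 0 in Oral minus Cranial, where the set used is at -1.77, and for Hoxc6 the sets differ in sign in Ventral minus Dorsal.

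Between the trunk sites no member was called in Ventral against Dorsal with limma, and 0.0275% of all genes were called in either direction. At an unadjusted p under 0.05 there were 4 of 7 (Hoxc4, Hoxc9, Hoxc10 and Hoxc13), against 8.55% of all genes, and the same 4 had arrays that did not overlap, against 10.1%. Hoxc10 was the largest, at 1.22 ± 0.31 (2.33-fold, adjusted p = 0.403), the 20th most positive difference of all genes. Hoxc13 was at 0.34 and Hoxc4 at -0.44. Hoxc9 was at 0.53 (adjusted p = 0.441), and without Dorsal 2 it was at 0.68 (adjusted p = 0.0454). With all site arrays in the fit, Hoxc8 gave -0.02 ± 0.26 and Hoxc5 0.05 ± 0.36. Without Dorsal 1 these became -0.41 ± 0.12 for Hoxc8 (adjusted p = 0.238) and -0.31 ± 0.33 for Hoxc5 (adjusted p = 0.742). Hoxc10 was then at 0.92, Hoxc9 at 0.36, Hoxc13 at 0.30, Hoxc6 at -0.28 and Hoxc4 at -0.50, and again none was called.

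The comparison of EPF with ENF asked whether cells of the En1 lineage differ from the other cells of the same back dermis. Hoxc10 was 8.10, 7.99 and 8.33 in EPF, against 6.83, 6.82 and 7.03 in ENF. The groups were well apart. Hoxc10 was 2.37-fold higher in EPF (1.24 ± 0.16, limma adjusted p = 0.0324), 1 of 7 members, against 0.275% of all genes called higher. The call was lost without ENF 1, ENF 2 or any 1 EPF array, with adjusted p of 0.0652 to 0.186, while the difference stayed between 1.15 and 1.32.

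The other members did not pass the test between EPF and ENF. Hoxc8 gave 10.33, 10.24 and 10.10 in EPF and 9.95, 9.82 and 9.53 in ENF, without overlap, with a difference of 0.46 (adjusted p = 0.382). Hoxc9 gave 8.82, 8.34 and 8.46 in EPF and 8.24, 7.95 and 8.16 in ENF, at 0.43 (adjusted p = 0.455). Hoxc4, Hoxc5 and Hoxc6 differed by -0.21, -0.21 and 0.05. Hoxc13 was 5.65, 4.46 and 4.95 in EPF and 5.94, 6.10 and 5.80 in ENF, at -0.92 ± 0.29 (adjusted p = 0.303); the groups did not overlap. Counting Hoxc10, 4 of 7 members had an unadjusted p under 0.05, against 10.8% of all genes.

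Several marker lists moved with this comparison. The keratinocyte list of 12 genes averaged 7.81, 5.19 and 6.57 in EPF arrays and 7.32, 9.24 and 9.35 in ENF arrays. Trp63, the keratinocyte master regulator, was the 1 member called (-4.13), against 0.033% of all genes called lower. Mural genes averaged 8.75 to 8.94 in EPF and 7.16 to 7.30 in ENF, with 3 of 8 called higher (Myh11 at 2.29, Cnn1 at 2.13 and Acta2 at 1.67). Skeletal muscle genes averaged 4.59 to 4.90 in EPF and 5.94 to 7.0 in ENF, with 2 of 8 called lower. The part of these cells in the Hoxc10 and Hoxc13 values was not tested, and in sorted pools fewer cells of a type and less RNA per cell cannot be told apart.

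EPF can be read beside Dorsal only without a test, since the array sets stood apart. EPF and Dorsal share the Cre driver, tissue and gate. Their means were 8.50 and 8.24 for Hoxc4, 10.22 and 10.73 for Hoxc8, 8.54 and 8.37 for Hoxc9, and 8.14 and 8.03 for Hoxc10. Without Dorsal 1 the Dorsal means were 8.31, 11.13, 8.54 and 8.33 for the same genes. These genes were far from their head means in both groups. For the others, EPF and Dorsal means were 7.69 and 7.29 for Hoxc5, 7.43 and 7.46 for Hoxc6, and 5.02 and 4.74 for Hoxc13. Hoxc6 lay nearer its head means (6.69 in Oral and 6.47 in Cranial). Hoxc13 was close to its own (4.75 and 4.88).

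In level order, Hoxc8 ran Dorsal, Ventral, EPF, ENF, Cranial and Oral from high to low, and only Dorsal and Ventral overlapped among neighbours. The Dorsal arrays, at 9.95 to 11.13, also spanned the EPF arrays (10.10 to 10.33) and met the highest ENF array (9.95). Orders across the divide between EPF and ENF and the 4 sites were not tested. Hoxc10 ran Ventral, EPF, Dorsal, ENF, Oral and Cranial, with overlap between EPF and Dorsal and between Oral and Cranial. Hoxc9 ran Ventral, EPF, Dorsal, ENF, Oral and Cranial; its neighbours among the top 4 and its last 2 overlapped. Hoxc4 ran ENF, EPF, Dorsal, Ventral, Cranial and Oral, with overlap of neighbours among the first 3. Hoxc5 ran ENF, EPF, Ventral, Dorsal, Cranial and Oral, and Hoxc6 ran Dorsal, EPF, ENF, Ventral, Oral and Cranial; in both the first 4 overlapped as neighbours. For Hoxc13 ENF came first, at 5.94 ± 0.15 (SD, n = 3), and its arrays stood clear of Ventral, the next group at 5.08 ± 0.12.

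Genes of the other Hox clusters were called lower in a smaller share than HoxC in each of the 4 head-to-trunk comparisons, and in Oral against Cranial HoxD had 3 of 8 lower against 2 of 7 for HoxC. Lower in Cranial than in Dorsal were 4 of 9 HoxA, 3 of 9 HoxB and 0 of 8 HoxD genes; 1 HoxA gene (Hoxa2, at 1.68) and 1 HoxD gene (Hoxd3, at 0.77) were higher. Median differences in that comparison were -0.52 for HoxA, -0.25 for HoxB and 0.06 for HoxD. In Oral against Dorsal the lower calls were 2 of 9 HoxA, 4 of 9 HoxB and 3 of 8 HoxD genes. Hoxa9 came closest to Hoxc8 in size, at -4.94 in Cranial and -5.24 in Oral against Dorsal. In Oral against Cranial, Hoxd8 (-3.85), Hoxd9 (-2.27), Hoxd3 (-1.40) and Hoxa2 (-1.84) were lower. Over all genes, 7.45% were lower in Cranial and 6.3% in Oral against Dorsal. Against Ventral they were 6.2% and 4.31%, and in Oral against Cranial 0.731%. In Dorsal, 6 of 7 HoxC genes lay above the array median, against 5 of 9 HoxA, 3 of 9 HoxB and 3 of 8 HoxD genes. In Ventral the counts were 6, 6, 7 and 3. In dim genes a difference may not have been detectable, and the difference between clusters was not tested.

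**Figure D4:**
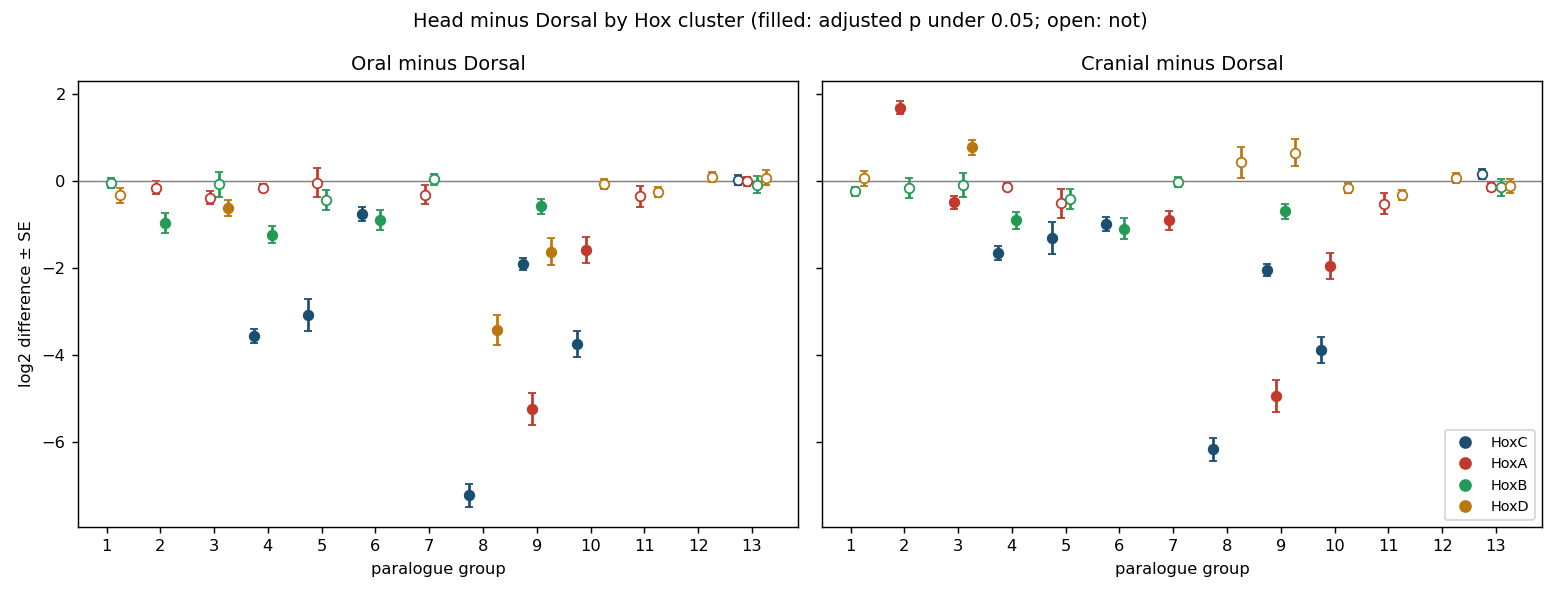
Log2 difference ± SE of all measured Hox genes from Dorsal, by paralogue group and coloured by cluster, for Oral (left) and Cranial (right); filled points were called. HoxC genes 4 to 10 all lie below 0 in both panels, and Hoxa9 is the lowest gene of another cluster, at -5.24 in Oral and -4.94 in Cranial.

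Known partners and regulators of Hox genes are given beside the share of all genes called higher, which was 11.2% in Cranial and 10.5% in Oral against Dorsal, and 11.7% in Cranial and 10.3% in Oral against Ventral. Of 8 measured TALE cofactors, homeodomain partners of Hox proteins, 3 were higher in Cranial than in Dorsal (Meis1 at 1.49, Pbx2 at 0.83 and Meis3 at 0.78), with a list median of 0.45 against -0.06 over all genes. In Oral against Dorsal 3 were higher (Pknox2 at 1.31, Pbx2 at 0.89 and Meis3 at 0.60) and Meis1 was lower (-0.72). Meis1 was also the 1 TALE gene called in Oral against Cranial (-2.21, limma adjusted p = 0.000246), with means of 7.22 and 9.43.

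Polycomb genes, which keep Hox loci silent where they are not used, had 4 of 16 higher and 1 lower in Cranial than in Dorsal, where 11.2% of all genes were higher and 7.45% lower. Rnf2 (1.34) and Ring1 (0.99), the catalytic ubiquitin ligases of the complex, led the higher ones, and the list median was 0.21. In Oral against Dorsal 3 were higher and in the comparisons with Ventral 5 (Cranial) and 4 (Oral). Of 8 trithorax and H3K27 demethylase genes, 2 were higher in Cranial (Kmt2b at 0.78 and Kdm6a at 0.47) and 1 in Oral (Kmt2b at 0.83) against Dorsal, the second of these close to the 10.5% of all genes. The 4 axial Hox inducers and 10 hair shaft genes had no call in any of the 7 comparisons. In each group 1 of the 4 inducers and 4 to 6 of the 10 hair shaft genes lay above the array median. In the dim ones a difference may not have been detectable. Hair shaft genes averaged 4.91 to 5.19 in EPF arrays and 5.30 to 6.485 in ENF arrays, with a median difference of -0.43.

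Marker lists also moved beside the head-to-trunk results, adipocyte genes among them. The 5 measured averaged 7.13 to 7.17 in Oral, 7.62 to 7.85 in Cranial, 7.84 to 9.23 in Ventral and 8.34 to 9.74 in Dorsal. Lower calls numbered 3 of 5 in Oral and 1 of 5 in Cranial against Dorsal, and 2 of 5 in each against Ventral. Over all genes, 6.3% were lower in Oral and 7.45% in Cranial against Dorsal, and 4.31% in Oral and 6.2% in Cranial against Ventral. Adipoq, the adipocyte hormone adiponectin, was at the lower quartile or below in both head groups. Fibroblast markers averaged 11.32 to 11.55 in Oral, 12.02 to 12.34 in Cranial, 11.08 to 11.96 in Ventral and 11.69 to 12.42 in Dorsal. Of these 10 genes, 3 were lower in Oral than in Dorsal, with Dcn, the matrix proteoglycan decorin, at -2.40. Keratinocyte genes averaged 4.89 to 5.27 over the 12 site arrays, with 1 of 12 higher (Perp, against 10.3 to 11.7% of all genes) and 1 to 3 lower in each of the 4 comparisons. Endothelial genes had 2 of 8 lower in each, and 1 higher in Cranial against Ventral. Melanocyte and Schwann genes had 1 or 2 of 8 lower, and leukocyte, mural and skeletal muscle genes at most 1 of 8, a share that over so few genes cannot be set apart from the background. The part of any of these in the HoxC values was not tested.

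Outside the cluster, the genes whose pattern over the 12 site arrays was most like a member's were taken from 2388 candidates. Nearest to Hoxc4 was Slc9a3r1 (Pearson r = 0.978), then Tmem204 and Cxcl2. Nearest to Hoxc5 was also Slc9a3r1 (0.943), then Cxcl2 and Mgll. Nearest to Hoxc8 was Layn (0.993), then Trim2 and H3f3a. Nearest to Hoxc9 was Ifngr2 (0.979), then Ctcf and Chd4, and nearest to Hoxc10 was again Ifngr2 (0.982), then Mrps15 and Chd4. The arrays fall into head and trunk sets, and for Hoxc8, Hoxc9 and Hoxc10 a high r describes mainly that split. Slc9a3r1, nearest to Hoxc4 and Hoxc5, was graded, with means of 6.64 in Oral, 8.68 in Cranial, 9.47 in Ventral and 9.61 in Dorsal. Tmem204, Cxcl2 and Mgll were also higher in Cranial than in Oral. None of these r values carries a p.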

How the data were processed

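RNA of 18 sorted cell samples was measured, each on its own Affymetrix array. The deposited log2 values, 1 per probe set, are RMA levels that were quantile normalized by the authors, per the labels' protocols. Of 45101 probe sets, 64 were controls, 34945 carried 1 gene symbol, 932 several and 9160 none. Single-symbol probe sets gave 18193 genes, each by its probe set with the highest mean over all arrays; 34741 probe sets matched a current gene ID, and no symbol was updated.

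The linear models and moderated statistics came from limma 3.58.1, run under R 4.3.3. The 12 arrays of the 4 sites shared 1 fit and the 6 EPF and ENF arrays another; p-values were Benjamini-Hochberg adjusted over all genes of a comparison and called under 0.05. The fit was tested on simulated data. The HoxC members and the gene lists were chosen with earlier results of these data known. All HoxC genes are named, at most 4 called genes per list and comparison, and for members spanning at least 1 log2 unit over the sites up to 3 most similar genes. Hoxc6 spanned just under 1. The number of arrays limits the precision, and RMA compresses differences of dim or very bright probe sets. Alternatives covered weights, filters, probe sets, normalization, the arrays in the fit, a replicate block and leaving out each array. Same-numbered replicates did not deviate together (correlations -0.38 to 0.30), so the numbers were not treated as pairs.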

Additional observations from a re-analysis of the deposited data

How the results depend on the processing

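Over 586 alternative values of the 27 called differences, 553 stayed called, 33 did not and 0 changed sign. The losses were in Hoxc5 (Cranial against Dorsal, 6 of 22; Cranial against Ventral, 5 of 22; Oral against Cranial, 11 of 22), Hoxc6 (Oral against Dorsal, 2; Oral against Ventral, 3) and Hoxc10 (EPF against ENF, 6 of 14). Counts of called members stayed at 5 to 7 in Cranial against Dorsal and in Oral against Ventral. They were 5 to 6 in Oral against Dorsal and in Cranial against Ventral, and 6 to 7 in the F test. The counts of 7 came with array weights, which added Hoxc13. There Hoxc13 was called higher in Cranial than in Dorsal (0.23, limma adjusted p = 0.0247) and lower in Oral than in Ventral (-0.25, adjusted p = 0.0339). In Oral against Cranial the count of 2 became 1 with the mean of all probe sets, with every probe set tested, with the columns quantile normalized again or with a replicate block. It became 3 with array weights, all 18 arrays, only the 6 arrays of both groups or adjustment over all 6 site comparisons, and was 1 to 3 when leaving out arrays. In Ventral against Dorsal the count of 0 became 2 with array weights (Hoxc4, Hoxc13) and 2 with adjustment over all 6 site comparisons (Hoxc9, Hoxc10), and was 0 to 1 when leaving out arrays (Hoxc9 without Dorsal 2). In EPF against ENF the count of 1 became 2 with all 18 arrays (Hoxc10, Hoxc13) and 0 with a replicate block, and was 0 to 1 when leaving out arrays; the Hoxc10 call was lost without ENF 1, ENF 2 or any EPF array. Counts over all genes moved more: 3393 genes in Cranial against Dorsal ranged from 1242 to 10113, 3065 in Oral against Dorsal from 1065 to 8963, 3251 in Cranial against Ventral from 1641 to 8854, 2665 in Oral against Ventral from 1420 to 7724, 207 in Oral against Cranial from 111 to 1926, 5 in Ventral against Dorsal from 0 to 952, 56 in EPF against ENF from 4 to 460, and 3836 in the F test from 2513 to 11606. The cause was not tested.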
